A study of Mus musculus with 8 samples.

Results

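The LIF receptor and STAT3 pathway genes described here are 10 named genes: Lifr, Il6st, Lif, Jak1, Stat3, Socs3, Ier3, Junb, Pim1 and Pim3. They were chosen by symbol, and each was found by the Ensembl identifier that the deposited tables pair with that symbol. All 10 were present among the 47729 gene identifiers counted per library, and all 10 passed the filter on low counts that left 16515 genes for testing. RNA was sequenced from E14TG2a cells, a mouse embryonic stem cell line (129/Ola strain), after 48 h in 15% serum with LIF, with 2 libraries in each of 4 groups. QT7 cells are quadruple knockout cells given back a single copy of TCF7, and QT7L1 cells are the same given back a single copy of TCF7L1. QKO cells are labelled TCF7(-/-), TCF7L1(-/-), TCF7L2(-/-), LEF1(-/-) and make none of these factors at full length. WT cells carry no such change. The genotype tags name the factor the other way round (TCF7L1(+/-) for QT7 and TCF7(+/-) for QT7L1), so the group names follow the sample titles. Replicates 1 and 2 of QT7, QT7L1 and QKO are clones A and B, and those of WT are 2 biological replicates. Each group thus rests on 2 clones or cultures.

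LIF, a cytokine of the interleukin-6 family, binds the LIF receptor, which pairs with the shared signalling chain gp130 encoded by Il6st. The kinase JAK1 on that receptor phosphorylates STAT3, which then enters the nucleus and switches on targets such as Socs3, whose product shuts the receptor down again. In mouse embryonic stem cells grown in serum this route holds back differentiation, while TCF/LEF factors carry the Wnt/β-catenin signal to DNA.

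Libraries held 31573536 to 43362627 counts, and levels are given as CPM (counts per 1e+06 counted reads) after TMM scaling, which adjusts for composition between libraries. Replicates differed by far more than counting noise in all 4 groups, and most in QT7. The chi-square per degree of freedom between replicates was 57.1 in QT7, 22.0 in QT7L1, 18.6 in QKO and 22.5 in WT. The 8 pluripotency markers were present in every library, with a summed level of 5871 to 6969 CPM. Within that sum, 2 were called higher and 2 lower in QKO against WT, 50% of the 8 beside 26.4% of all genes. Nanog had 583 and 504 CPM in QT7, 440 and 445 CPM in QT7L1, 624 and 565 CPM in QKO, and 307 and 287 CPM in WT. Tdgf1 had 966 and 1239 CPM in QT7, 1057 and 1288 CPM in QT7L1, 672 and 631 CPM in QKO, and 870 and 1004 CPM in WT. Summed levels of 12 fibroblast markers were 36.2 and 80.5 CPM in QT7, 43.7 and 57.4 CPM in QT7L1, 194 and 52.9 CPM in QKO, and 143 and 84.7 CPM in WT. The markers did not move together. Lum was at 0 in all 8 libraries, while Col1a1 ran from 2.58 CPM in QT7 replicate 1 to 51.0 CPM in QKO replicate 1. Thy1 had 7.98 and 11.5 CPM in WT and 14.4 to 20.3 CPM in the 6 mutant libraries. Summed primitive endoderm markers (7 genes) lay at 68.9 and 40.8 CPM in QT7, 38.8 and 37.4 CPM in QT7L1, 39.7 and 53.0 CPM in QKO, and 36.3 and 87.1 CPM in WT, and 5 trophoblast markers summed to 2.19 to 6.07 CPM. The part of these other cell types in the differences below was not tested. Tcf7, the gene for TCF7, had 16.6 and 20.9 CPM in QT7, 10.1 and 12.7 CPM in QT7L1, 7.97 and 19.6 CPM in QKO, and 59.5 and 61.9 CPM in WT. Tcf7l1 had 27.4 and 22.4 CPM in QT7, 36.9 and 27.5 CPM in QT7L1, 38.3 and 39.1 CPM in QKO, and 73.5 and 68.8 CPM in WT. Against QKO, neither returned gene passed the test in its own line: Tcf7 had an adjusted p of 0.41 in QT7, and Tcf7l1 one of 0.217 in QT7L1 with a log2 fold change of -0.26 ± 0.15. Tcf7l1 was called lower in QT7 than in QKO, and Lef1 lower in QT7L1 than in QKO. Both calls were lost on dropping either QKO library. Lef1 was also higher in QT7 than in QT7L1 with DESeq2 (adjusted p = 0.0243), though not in the main fit. Relative to WT, Tcf7, Tcf7l1 and Lef1 were called lower in QT7, QT7L1 and QKO. Several of these calls against WT were lost when 1 library was left out. The Lef1 call in QT7 against WT was also lost when only QT7 and WT were fitted (adjusted p = 0.135). Tcf7l2 was not called in any of the 6 comparisons, but passed when only QT7L1 and QKO were fitted (log2 difference -0.53, adjusted p = 0.0482). Leaving out QKO replicate 2 gave Tcf7 a log2 difference of 1.23 in QT7 against QKO. Leaving out QKO replicate 1 gave it one of -0.78 in QT7L1 against QKO. Fitting without a filter on low counts gave Tcf7 an adjusted p of 0.0382 in QT7 against QKO. Without that filter Tcf7 was also higher in QT7 than in QT7L1, by 0.73 on the log2 scale (adjusted p = 0.00129). As the results for Tcf7 change with these settings, QT7 and QT7L1 stand for the libraries labelled so.

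Among the 10 genes, differences were counted where edgeR's quasi-likelihood test gave an adjusted p under 0.05 over all genes tested. In QT7 against QKO, 3 genes rose (Jak1, Socs3 and Ier3) and 0 fell, beside 26.9% of all genes called and 14.8% called higher. QT7L1 against QKO gave 5 higher (Jak1, Socs3, Ier3, Pim1 and Pim3) and 0 lower, beside 29.7% called and 15.9% called higher. In QKO against WT, 6 fell (Lifr, Lif, Jak1, Socs3, Ier3 and Pim1) and 0 rose, beside 26.4% called and 14.7% called lower. These 3 comparisons share the QKO libraries. QT7 against WT gave 1 call, Lifr, which was lower (4.62% of all genes called). QT7L1 against WT gave 0 calls at a background of 0.745%. There 3 genes (Lifr, Ier3 and Pim3) had an unadjusted p under 0.05, as did 2536 of all 16515 genes tested. DESeq2 called 1 of the 10, Lifr, and 568 of all genes. QT7 against QT7L1 also gave 0 calls, where 0.00606% of all genes were called. No gene of the 10 had an unadjusted p under 0.05 there, against 1830 of all genes tested. DESeq2 called 0 of the 10 and 236 of all genes. The median log2 fold change over the 10 genes was 0.23 in QT7 against QKO (0.05 over all genes tested), 0.36 in QT7L1 against QKO (0.02 over all) and -0.43 in QKO against WT (-0.01 over all).

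Several of these counts changed when 1 library was left out. The number of all genes called fell too in each setting named next. In QT7 against QKO the count was 1 without QKO replicate 1. In QT7L1 against QKO it was 2 without QKO replicate 1, 3 without QKO replicate 2 and 2 without QT7L1 replicate 2. For QKO against WT, dropping QKO replicate 1 left 3, dropping QKO replicate 2 left 2 and dropping the second WT library left 2. Ier3 passed in all 3 comparisons under each of the 13 alternative settings, and so did Lifr in QKO against WT and Jak1 in QT7L1 against QKO. In bulk RNA, fewer cells of a type and less RNA per cell cannot be told apart.

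**Figure D1:**
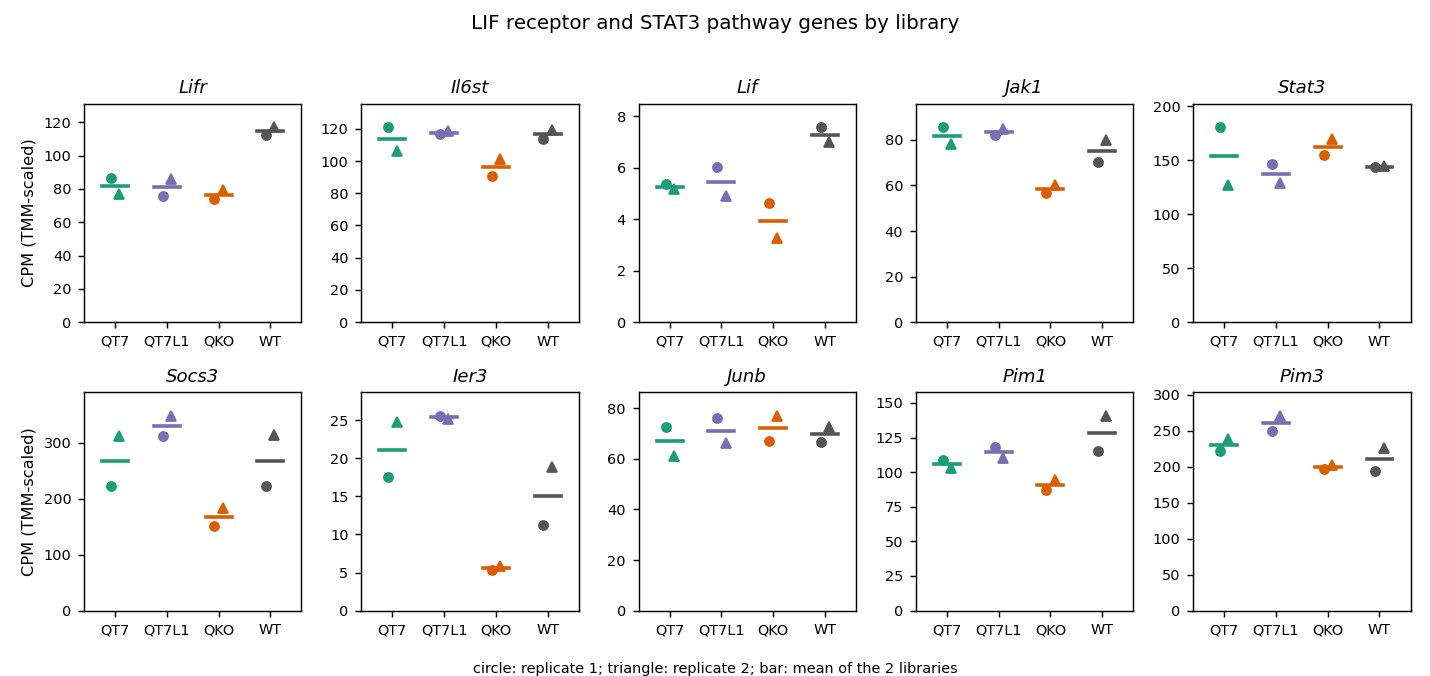
Level of each of the 10 genes in each library (y axes: TMM-scaled CPM from 0), with the groups QT7, QT7L1, QKO and WT along the x axis, a circle for replicate 1, a triangle for replicate 2 and a bar at their mean. Both QKO libraries lie below the other 6 for Il6st, Lif, Jak1, Socs3, Ier3 and Pim1, and both WT libraries lie above the other 6 for Lifr and Lif.

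The order of the libraries differed between genes, as the plot of levels by library shows. Both QKO libraries were below all other 6 libraries in 6 of the 10 genes (Il6st, Lif, Jak1, Socs3, Ier3 and Pim1), against 21.5% of all genes tested. Both WT libraries were above all other 6 in 2 genes (Lifr and Lif), against 8.14% of all genes tested. In 0 of the 10 genes did both QKO libraries lie above the other 6 (19.6% of all genes tested) or both WT libraries below them (6.85%).

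Levels per kb of exon, which can be compared between genes, ran from Pim3 (92.7 CPM per kb, mean of 8 libraries) and Socs3 (89.3 CPM per kb) down to Lif (1.26 CPM per kb). Pim1 (32.6 CPM per kb) and Junb (30.4 CPM per kb) came next, then Stat3 (15.7 CPM per kb) and Ier3 (14.9 CPM per kb). Jak1 (10.3 CPM per kb) and Lifr (8.21 CPM per kb) followed, with Il6st between them.

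Lifr (ENSMUSG00000054263, chr15:7090614-7197489, plus strand, GRCm38) encodes the ligand-binding chain of the receptor. Its level was 86.5 and 77.2 CPM in QT7, 75.8 and 85.9 CPM in QT7L1, 73.8 and 79.3 CPM in QKO, and 112 and 117 CPM in WT. The libraries of the 3 mutant groups overlapped, and all 6 lay below both WT libraries. Relative to WT, Lifr fell by 0.58 ± 0.11 on the log2 scale in QKO (fold 0.668, adjusted p = 0.00451) and by 0.49 ± 0.11 in QT7 (adjusted p = 0.0338). In QT7L1 the log2 difference from WT was -0.50 ± 0.11, with an adjusted p of 0.0642. That p went under 0.05 without QT7 replicate 1 (0.0251), without QT7 replicate 2 (0.0256), with DESeq2 (0.00497), without a filter on low counts (0.00302) and when only QT7L1 and WT were fitted (0.0223). The QT7 call was lost without any one of 7 libraries, at adjusted p = 0.16 and 0.129 (WT replicates 1 and 2), 0.0521 and 0.0525 (QKO replicates 1 and 2), 0.0553 (QT7 replicate 2), and 0.0548 and 0.0545 (QT7L1 replicates 1 and 2), and when only QT7 and WT were fitted (0.0975). Against QKO, neither line passed, with log2 differences of 0.10 ± 0.11 in QT7 (adjusted p = 0.537) and 0.08 ± 0.11 in QT7L1 (adjusted p = 0.608).

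Il6st (ENSMUSG00000021756, chr13:112464070-112510086, plus strand) encodes gp130, the chain that the LIF receptor shares with other receptors of the family. Levels were 121 and 106 CPM in QT7, 117 and 119 CPM in QT7L1, 90.8 and 101 CPM in QKO, and 114 and 120 CPM in WT. Both QKO libraries were lowest, and the other 3 groups overlapped. The QKO differences did not pass: -0.28 ± 0.10 against WT (adjusted p = 0.0692), with QT7 above QKO by 0.24 ± 0.10 (adjusted p = 0.109) and QT7L1 above QKO by 0.29 ± 0.10 (adjusted p = 0.057). Without QT7 replicate 1 or 2, adjusted p was 0.0412 and 0.0409 for QKO against WT and 0.0309 and 0.0305 for QT7L1 against QKO. With only the 2 groups compared it was 0.0495 for QKO against WT and 0.0355 for QT7L1 against QKO in Il6st.

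Lif itself (ENSMUSG00000034394, chr11:4257557-4272514, plus strand), the ligand that was also supplied in the medium, was the lowest of the 10. It had 5.36 and 5.18 CPM in QT7, 6.03 and 4.90 CPM in QT7L1, 4.62 and 3.27 CPM in QKO, and 7.58 and 7.01 CPM in WT. WT was highest and QKO lowest, with both rescued lines between them and overlapping each other. Relative to WT, Lif fell by 0.89 ± 0.24 in QKO (fold 0.541, adjusted p = 0.0216), a call lost when QKO replicate 2 (0.169), the first WT library (0.0838) or the second (0.0847) was left out. The rescued lines did not pass against QKO, at 0.42 ± 0.24 in QT7 (adjusted p = 0.216) and 0.47 ± 0.24 in QT7L1 (adjusted p = 0.158), nor against WT, at -0.47 ± 0.23 (adjusted p = 0.295) and -0.41 ± 0.23 (adjusted p = 0.429).

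Jak1 (ENSMUSG00000028530, chr4:101152367-101265282, minus strand) encodes the receptor-bound tyrosine kinase. It had 85.5 and 78.1 CPM in QT7, 82.2 and 84.7 CPM in QT7L1, 56.7 and 60.4 CPM in QKO, and 70.4 and 79.8 CPM in WT. QKO stood apart below every other library, while QT7 and WT overlapped. Jak1 was higher than in QKO by 0.48 ± 0.11 in QT7 (fold 1.40, adjusted p = 0.00896) and by 0.51 ± 0.11 in QT7L1 (fold 1.43, adjusted p = 0.00643), and in QKO it fell by 0.36 ± 0.11 relative to WT (fold 0.779, adjusted p = 0.0309). The QT7 call was lost without QKO replicate 1 (adjusted p = 0.0662). The QKO call against WT was lost on dropping QKO replicate 1 (0.151), QKO replicate 2 (0.0977) or the second WT library (0.228).

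Stat3 (ENSMUSG00000004040, chr11:100885098-100939540, minus strand), the transcription factor of the route, did not follow Jak1. Its levels were 181 and 127 CPM in QT7, 146 and 128 CPM in QT7L1, 155 and 170 CPM in QKO, and 143 and 145 CPM in WT. The QT7 clones spanned every other library, so the spread within QT7 exceeded the differences between groups. No comparison passed, with log2 differences of -0.08 ± 0.15 in QT7 against QKO (adjusted p = 0.728), -0.24 ± 0.15 in QT7L1 against QKO (adjusted p = 0.251) and 0.17 ± 0.15 in QKO against WT (adjusted p = 0.43). Stat3 shares 72 exon bases with Stat5a on the opposite strand. As the strand setting used in counting is not given in the sources used here, reads there cannot be assigned to one of these genes.

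Socs3 and Ier3 passed in the same comparisons as Jak1, while Junb passed in none of the 6 comparisons. The start regions of Socs3 and Ier3 are shown because the first holds a STAT-type motif and the second does not, beside that of Lifr. Windows of 300 bases around RefSeq start sites (GRCm38.p6) were found for all 10 genes, 12 windows in all. Sequences run 5′ to 3′ on the gene's strand, with position 0 at the RefSeq start and motif matches in capitals. The Socs3 stretch covers -200 to -101 (chr11:117969467-117969566, minus strand) and lies inside the longer GENCODE gene, and the Lifr stretch covers -100 to -1 (chr15:7129472-7129571, plus strand) and likewise lies inside the GENCODE gene, which starts at 7090614. The Ier3 stretch covers -100 to -1 (chr17:35821613-35821712, plus strand), and its last bases lie inside the GENCODE gene, which starts at 35821684.
Socs3: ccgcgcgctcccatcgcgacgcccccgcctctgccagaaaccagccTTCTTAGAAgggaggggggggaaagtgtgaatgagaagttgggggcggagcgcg
Ier3: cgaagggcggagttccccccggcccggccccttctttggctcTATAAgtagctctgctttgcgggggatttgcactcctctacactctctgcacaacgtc
Lifr: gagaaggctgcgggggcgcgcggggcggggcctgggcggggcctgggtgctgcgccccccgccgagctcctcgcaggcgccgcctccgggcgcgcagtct

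The capitals in Socs3 are a match to the STAT-type motif TTCNNNGAA at -154 to -146, and those in Ier3 a match to TATAA at -58 to -54. Both strands were searched in every window. TTCNNNGAA was in 1 of the 12 windows of the 10 genes (Socs3) and in 8.3% of 32851 RefSeq windows of the same length. The TCF/LEF-type motif CTTTGAT was in 0 of the 12 and in 3.73% of all windows, and TATAA was in 3 of the 12 (Ier3, Junb and a further Lifr start) and in 24.9% of all. A match describes letters only, and no match says only that these letters are not in this window.

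Socs3 (ENSMUSG00000053113, chr11:117966079-117970047, minus strand) encodes the feedback inhibitor of gp130 and is a direct STAT3 target. It had 223 and 312 CPM in QT7, 312 and 348 CPM in QT7L1, 152 and 183 CPM in QKO, and 222 and 314 CPM in WT. Both QKO libraries were lowest, and the QT7 and WT libraries covered almost the same range. Socs3 was higher than in QKO by 0.67 ± 0.20 in QT7 (fold 1.60, adjusted p = 0.0381) and by 0.98 ± 0.20 in QT7L1 (fold 1.97, adjusted p = 0.00889), and in QKO it fell by 0.68 ± 0.20 relative to WT (fold 0.625, adjusted p = 0.0386). These calls depended on single libraries. In QT7 against QKO the adjusted p was 0.193 on dropping QKO replicate 1, 0.0943 on dropping QKO replicate 2, 0.153 on dropping QT7 replicate 2, and 0.0593 and 0.0594 without QT7L1 replicate 1 or 2. In QT7L1 against QKO it was 0.0629 without QKO replicate 1 and 0.0612 without QT7L1 replicate 2. In QKO against WT, dropping QKO replicate 1 gave 0.19, QKO replicate 2 gave 0.0943, and either QT7L1 library 0.0612 and 0.0613. Dropping the second WT library gave 0.251, at a log2 fold change of -0.41.

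Ier3 (ENSMUSG00000003541, chr17:35821684-35822923, plus strand), an immediate early gene whose product bears on cell survival, changed by the largest fold of the 10 in QT7 against QKO, QT7L1 against QKO and QKO against WT. It had 17.6 and 24.7 CPM in QT7, 25.6 and 25.2 CPM in QT7L1, 5.37 and 5.90 CPM in QKO, and 11.2 and 18.9 CPM in WT. The means were 21.2 ± 5.05 CPM in QT7, 25.4 ± 0.308 CPM in QT7L1, 5.64 ± 0.379 CPM in QKO and 15.1 ± 5.45 CPM in WT (SD, n = 2 each). QKO stood below all other libraries, QT7L1 above all others, and QT7 overlapped WT. Against QKO, Ier3 rose by 1.91 ± 0.26 in QT7 (fold 3.75, adjusted p = 0.0016) and by 2.17 ± 0.26 in QT7L1 (fold 4.50, adjusted p = 0.000968). In QKO it fell by 1.42 ± 0.26 relative to WT (fold 0.374, adjusted p = 0.00473). QT7L1 lay 0.75 ± 0.24 above WT and QT7 0.49 ± 0.24 above WT, and neither passed (adjusted p = 0.191 and 0.303), though the QT7L1 difference did without a filter on low counts (adjusted p = 0.00418).

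Pim1 (ENSMUSG00000024014, chr17:29490753-29496112, plus strand) and Pim3 (ENSMUSG00000035828, chr15:88862186-88865726, plus strand) encode serine/threonine kinases that promote survival and growth. Pim1 had 109 and 103 CPM in QT7, 118 and 110 CPM in QT7L1, 86.9 and 94.6 CPM in QKO, and 115 and 141 CPM in WT. Pim3 had 222 and 238 CPM in QT7, 249 and 271 CPM in QT7L1, 197 and 202 CPM in QKO, and 194 and 226 CPM in WT. QKO was lowest for Pim1 with no overlap, whereas for Pim3 the QKO and WT libraries overlapped and QT7L1 was highest.

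For Pim1, the fall in QKO relative to WT was 0.50 ± 0.11 (fold 0.709, adjusted p = 0.0116), which was lost on dropping QKO replicate 1 (0.0789), QKO replicate 2 (0.0512) or the second WT library (0.118). Pim1 was higher in QT7L1 than in QKO by 0.33 ± 0.11 (adjusted p = 0.0497), a call lost without QKO replicate 1 (0.218) or 2 (0.111) and without QT7L1 replicate 1 (0.202) or 2 (0.106), with DESeq2 (0.0608), with RLE size factors (0.0608) and with a replicate block (0.0552). Pim3 was higher in QT7L1 than in QKO by 0.38 ± 0.10 (fold 1.30, adjusted p = 0.018), and the call was lost without QKO replicate 1 (0.0864), QKO replicate 2 (0.0846) or QT7L1 replicate 2 (0.119). In QT7 against QKO, neither kinase passed, at 0.22 ± 0.11 for Pim1 (adjusted p = 0.18) and 0.21 ± 0.10 for Pim3 (adjusted p = 0.152). Pim1 shares 488 exon bases with the antisense gene Gm26885, so reads there cannot be assigned.

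Junb (ENSMUSG00000052837, chr8:84974484-84978718, minus strand), a subunit of the AP-1 transcription factor, had 72.5 and 61.3 CPM in QT7, 76.2 and 66.2 CPM in QT7L1, 67.1 and 77.0 CPM in QKO, and 66.7 and 72.7 CPM in WT. All 4 groups overlapped. Its log2 differences were -0.11 ± 0.13 in QT7 against QKO (adjusted p = 0.556), -0.02 ± 0.13 in QT7L1 against QKO (adjusted p = 0.928) and 0.05 ± 0.13 in QKO against WT (adjusted p = 0.803). Junb shares 173 exon bases with Prdx2 on the opposite strand.

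**Figure D2:**
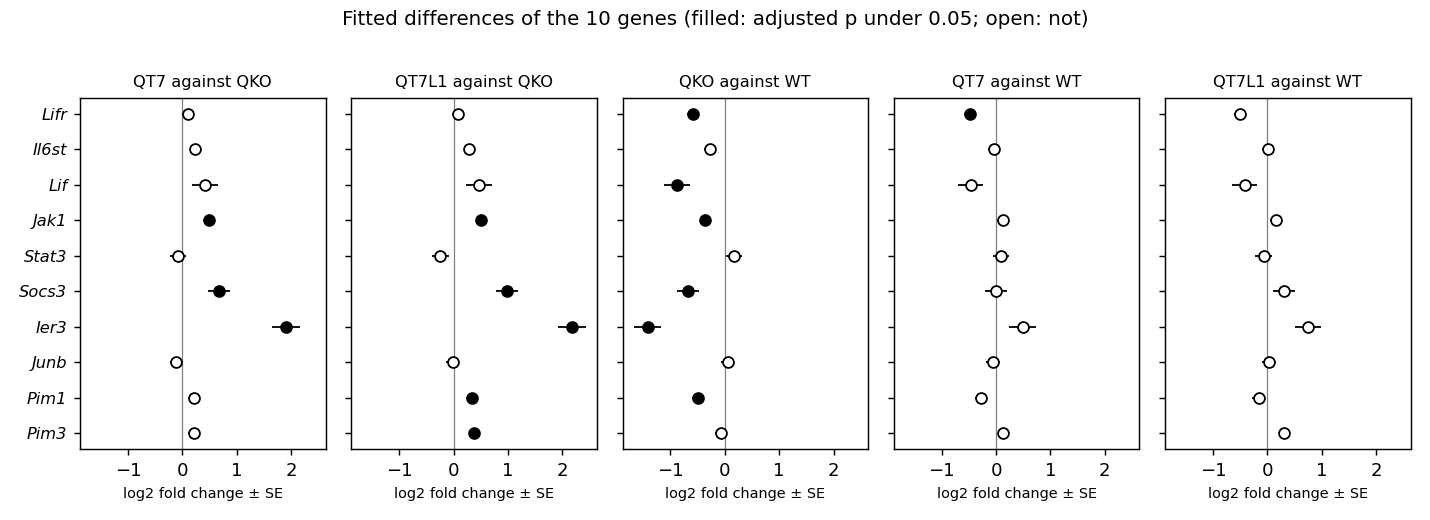
Fitted log2 fold change ± SE (x axis) of each of the 10 genes (y axis) in 5 comparisons, filled where the adjusted p was under 0.05. Ier3 lies farthest from 0 in the 3 comparisons that use QKO, at 1.91 in QT7 against QKO, 2.17 in QT7L1 against QKO and -1.42 in QKO against WT, and Lifr lies near 0 in both rescued lines against QKO.

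In the plot of fitted differences, Lifr was 0.08 to 0.10 log2 units above QKO in the rescued lines, without passing, where Jak1, Socs3 and Ier3 passed in both. Between QT7 and QT7L1 the widest difference of the 10 was that of Socs3, at -0.30 ± 0.20 (adjusted p = 0.591), followed by Ier3 at -0.26 ± 0.24 (adjusted p = 0.71). In the authors' deposited table of QKO and QT7, 3 of the 10 genes had an adjusted p under 0.05 (Jak1, Socs3 and Ier3). The authors' deposited table of QKO and QT7L1 had 4 (Jak1, Socs3, Ier3 and Pim3), and the authors' deposited table of WT and QKO had 5 (Lifr, Lif, Socs3, Ier3 and Pim1). Lifr was the single one in the authors' deposited tables of WT with QT7 and of WT with QT7L1, and there was none in the authors' deposited table of QT7 with QT7L1. Over all genes, the authors' adjusted p was under 0.05 for 4021 (QKO and QT7), 4217 (QKO and QT7L1) and 3758 (WT and QKO). It was under 0.05 for 1159 genes with WT and QT7, 460 with WT and QT7L1, and 214 with QT7 and QT7L1.

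Other genes of the route were read from 4 lists. Of 11 ligands and receptors of the interleukin-6 family, 9 were tested (Il6 and Cntf were too low). In QT7 against QKO, 3 rose (Il27ra, Clcf1 and Il11ra1) and 1 fell (Cntfr). Clcf1 lay near the floor, at 0.277 to 1.45 CPM over the libraries. When only QT7 and QKO were fitted, the calls on Clcf1 (adjusted p = 0.105) and Il11ra1 (0.102) were lost. The Cntfr call was lost on dropping either QKO library. In QT7L1 against QKO, 3 rose (Il27ra, Clcf1 and Il11ra1) and 1 fell (Il6ra). QKO against WT gave 1 higher (Il6ra) and 1 lower (Clcf1, not called by DESeq2, adjusted p = 0.0713). QT7 against WT gave 1 higher (Il6ra), 11.1% of the tested genes beside 4.62% of all genes. That call was lost when only QT7 and WT were fitted (adjusted p = 0.0854). QT7L1 against WT gave 0, beside 0.745% of all genes. The share of the tested genes called was 44.4% in QT7 against QKO, 44.4% in QT7L1 against QKO and 22.2% in QKO against WT, beside 26.9%, 29.7% and 26.4% of all genes. The median log2 fold change of the list was 0.19 in QT7 against QKO, -0.23 in QT7L1 against QKO and -0.58 in QKO against WT. Il27ra, the receptor chain for interleukin-27, had 6.02 and 7.15 CPM in QT7, 6.66 and 6.54 CPM in QT7L1, 3.04 and 3.52 CPM in QKO, and 4.51 and 5.87 CPM in WT. It rose by 1.00 ± 0.23 in QT7 (adjusted p = 0.0108) and by 1.01 ± 0.23 in QT7L1 (adjusted p = 0.00989) against QKO. Those calls were lost without QKO replicate 1 (0.0767 in QT7 and 0.0685 in QT7L1), without QKO replicate 2 (0.0563 in QT7 and 0.0506 in QT7L1) and, for QT7L1, without QT7L1 replicate 1 (0.0529) or 2 (0.0545). Il6ra, the interleukin-6 receptor, had 6.53 and 3.01 CPM in QT7, 2.18 and 1.10 CPM in QT7L1, 3.88 and 4.93 CPM in QKO, and 1.25 and 1.11 CPM in WT. It was higher in QKO than in WT by 1.90 ± 0.43 (adjusted p = 0.0118), which was lost without WT replicate 2 (0.0982) or QKO replicate 2 (0.0802). Without any 1 library, the number called on this interleukin-6 list ran from 0 to 3 in QT7 against QKO, from 0 to 4 in QT7L1 against QKO and from 0 to 3 in QKO against WT.

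Of 12 further JAKs, STATs and adaptors, all tested, QT7 against QKO gave 3 higher (Stat5b, Stat2 and Jak2) and 1 lower (Gab1). Against WT, either rescued line gave 0 calls (4.62% of all genes called in QT7 and 0.745% in QT7L1). QT7L1 against QKO gave 2 higher (Stat5b and Stat2) and 1 lower (Gab1), and QKO against WT 0 higher and 2 lower (Stat5b and Stat2). These calls are 33.3% of the list in QT7 against QKO, 25% in QT7L1 against QKO and 16.7% in QKO against WT, where all genes had 26.9%, 29.7% and 26.4%, so the shares lie near or below those of all genes. Medians of the list were 0.18 in QT7 against QKO, 0.18 in QT7L1 against QKO and -0.01 in QKO against WT. Stat5b, a STAT that several cytokine receptors activate, had 15.2 and 21.6 CPM in QT7, 21.1 and 23.5 CPM in QT7L1, 6.85 and 6.32 CPM in QKO, and 13.3 and 19.6 CPM in WT. The QKO libraries stood below the other 6, with an order of groups like that of Ier3. Stat5b rose by 1.48 ± 0.23 in QT7 (adjusted p = 0.00211) and by 1.76 ± 0.23 in QT7L1 (adjusted p = 0.00109) against QKO, and fell by 1.32 ± 0.23 in QKO against WT (adjusted p = 0.00356), under all 13 alternatives. Stat2, a STAT of interferon signalling, had 37.3 and 43.4 CPM in QT7, 53.3 and 41.7 CPM in QT7L1, 21.1 and 23.8 CPM in QKO, and 35.2 and 40.4 CPM in WT. Its rise against QKO was 0.84 ± 0.15 in QT7 (adjusted p = 0.00409) and 1.08 ± 0.15 in QT7L1 (adjusted p = 0.00136), while the fall of 0.75 ± 0.15 in QKO against WT (adjusted p = 0.007) was lost without WT replicate 2 (0.0657) or QKO replicate 1 (0.0537). The count in QT7 against QKO was 2 to 4 without any 1 library, that in QT7L1 against QKO 2 to 7 and that in QKO against WT 1 to 3.

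Of 13 inhibitors, all tested, 1 rose and 1 fell in each of QT7 against QKO, QT7L1 against QKO (Pias3 higher and Pias2 lower in both) and QKO against WT (Pias2 higher and Socs6 lower). In QT7 against QKO, the Pias2 call was lost without a filter on low counts (adjusted p = 0.0646) and with a replicate block (0.0518). It was also lost when only QT7 and QKO were fitted (0.0598), and without any 1 library of QKO, QT7 or QT7L1. The Pias2 call in QT7L1 against QKO was lost without either QKO library or without QT7L1 replicate 1. QT7 against WT gave 1 lower (Socs6), 7.69% of the list beside 4.62% of all genes. QT7L1 against WT gave 0, beside 0.745% of all genes. In each of the 3 comparisons with QKO, 15.4% of the inhibitors were called, below the 26.9%, 29.7% and 26.4% of all genes. The list's medians were 0.08 in QT7 against QKO, 0.12 in QT7L1 against QKO and -0.12 in QKO against WT. Socs6, a relative of Socs3, had 12.2 and 12.6 CPM in QT7, 13.2 and 14.3 CPM in QT7L1, 12.9 and 12.4 CPM in QKO, and 21.9 and 21.6 CPM in WT. As with Lifr, all 6 mutant libraries lay below both WT libraries. The log2 difference from WT was -0.81 ± 0.14 in QT7 (adjusted p = 0.0154), -0.66 ± 0.14 in QT7L1 (adjusted p = 0.0719) and -0.78 ± 0.14 in QKO (adjusted p = 0.00464). The QKO call held in all 13 alternatives, and the QT7 call was lost without WT replicate 1 (0.122) or 2 (0.0594) and when only QT7 and WT were fitted (0.0764). Pias3, named as an inhibitor of activated STAT3, had 39.8 and 37.2 CPM in QT7, 41.0 and 38.8 CPM in QT7L1, 27.3 and 26.2 CPM in QKO, and 30.6 and 31.0 CPM in WT. It rose against QKO by 0.53 ± 0.11 in QT7 (adjusted p = 0.0081) and by 0.58 ± 0.11 in QT7L1 (adjusted p = 0.00504), calls that were lost without QKO replicate 2 (0.0725 and 0.0507).

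Of 11 further STAT3 targets known from embryonic stem cells, all were tested. QT7 against QKO gave 0 higher and 3 lower (Myc, Bcl2l1 and Gbx2), QT7L1 against QKO 1 higher (Klf4) and 4 lower (Myc, Bcl2l1, Pramel7 and Gbx2), and QKO against WT 4 higher (Tfcp2l1, Myc, Pramel7 and Bcl2l1) and 1 lower (Cebpd). The Klf4 call was lost without QKO replicate 2 or QT7L1 replicate 2. For Gbx2, the call in QT7 against QKO was lost without any 1 library of WT or QKO, or without QT7 replicate 1. Bcl2l1 lost its calls in both rescued lines against QKO without QKO replicate 2, and in QT7L1 also without QT7L1 replicate 1. Pramel7 lay near the floor, at 1.40 and 1.11 CPM in QKO and 0.250 and 0.113 CPM in WT. Cebpd was low, at 1.46 and 1.30 CPM in QKO and 3.10 and 3.17 CPM in WT. Both of these QKO calls were lost on dropping WT replicate 2 or either QKO library. The Pramel7 call in QT7L1 against QKO was lost on dropping any library of either group. Both rescued lines had Tfcp2l1 higher than WT, and QT7 had Cebpd lower than WT. These were 18.2% of the list in QT7 against WT (4.62% of all genes) and 9.09% in QT7L1 against WT (0.745% of all genes). The Cebpd call was lost when only QT7 and WT were fitted (adjusted p = 0.122). Calls made up 27.3% of the list in QT7 against QKO, close to the 26.9% of all genes, and 45.5% both in QT7L1 against QKO (29.7% of all) and in QKO against WT (26.4% of all). The list's medians were 0.05 in QT7 against QKO, -0.08 in QT7L1 against QKO and 0.29 in QKO against WT. Gbx2 in QT7L1 and Bcl2l1 in QKO against WT were named after their values were seen. Myc, the growth-promoting transcription factor, had 59.0 and 93.6 CPM in QT7, 81.6 and 99.4 CPM in QT7L1, 186 and 226 CPM in QKO, and 132 and 119 CPM in WT. QKO was highest and both rescued lines had lower values than WT, without passing (adjusted p = 0.0912 in QT7 and 0.323 in QT7L1). Myc fell against QKO by 1.43 ± 0.21 in QT7 (adjusted p = 0.00263) and by 1.19 ± 0.21 in QT7L1 (adjusted p = 0.00467), under all 13 alternatives. The difference of 0.72 ± 0.21 in QKO against WT (adjusted p = 0.0351) was lost on dropping any library of either group, at 0.0677 and 0.202 (QKO replicates 1 and 2) and 0.102 and 0.214 (WT replicates 1 and 2). Tfcp2l1, a transcription factor that sustains self-renewal downstream of STAT3, had 820 and 817 CPM in QT7, 716 and 793 CPM in QT7L1, 729 and 640 CPM in QKO, and 501 and 521 CPM in WT. It was higher than in WT by 0.68 ± 0.10 in QT7 (adjusted p = 0.00682), 0.56 ± 0.10 in QT7L1 (adjusted p = 0.0328) and 0.42 ± 0.10 in QKO (adjusted p = 0.0117). These calls were lost without WT replicate 1 in QT7 (0.0756), QT7L1 (0.247) and QKO (0.06), and in QT7L1 also without WT replicate 2 (0.0899) or QT7L1 replicate 1 (0.131) or 2 (0.265), and in QKO without WT replicate 2 (0.0608) or QKO replicate 1 (0.0998). Without any 1 library, the number of these targets called ran from 1 to 5 in QT7 against QKO, 1 to 6 in QT7L1 against QKO, 0 to 7 in QKO against WT, 0 to 6 in QT7 against WT and 0 to 2 in QT7L1 against WT. No gene of the 4 lists was called in QT7 against QT7L1 with all 8 libraries, but leaving out 1 library gave up to 3 further STAT3 targets and up to 1 gene of the interleukin-6 family there.

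**Figure D3:**
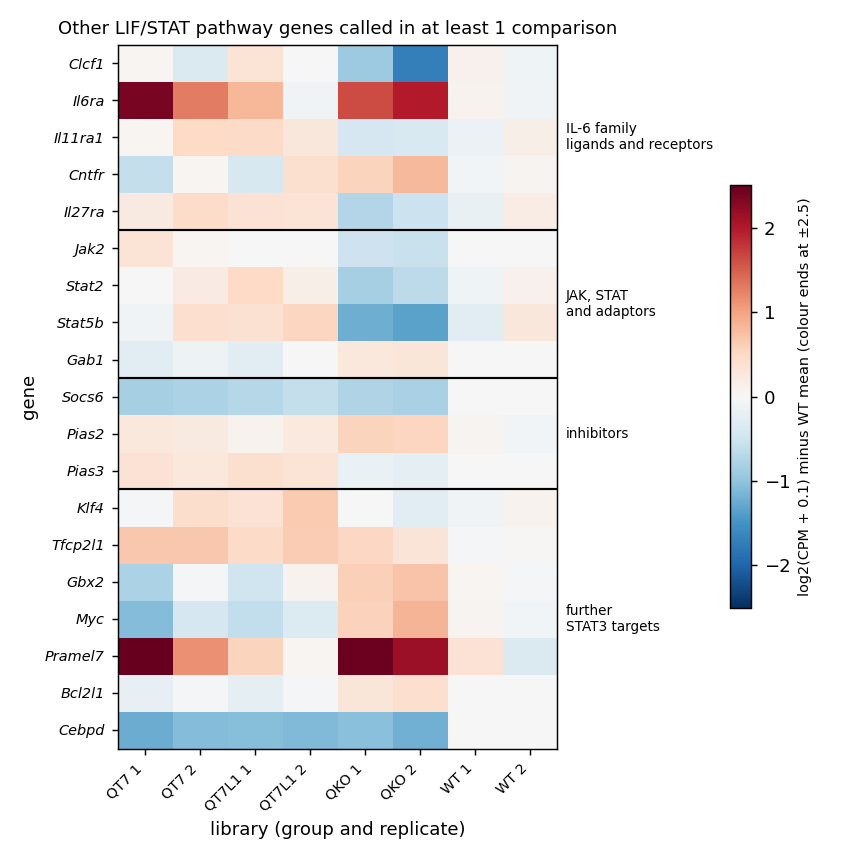
Genes of the 4 lists called in at least 1 comparison (rows, grouped by list), as log2(CPM + 0.1) in each of the 8 libraries (columns) minus the mean of the 2 WT libraries, in colours that end at ±2.5. Stat5b and Stat2 have their lowest values in both QKO libraries, Socs6 and Cebpd are low in all 6 mutant libraries, and Myc is high in QKO and low in QT7 and QT7L1.

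Among 9148 genes with a named symbol and a mean log2 CPM of at least 3, those whose log2 CPM most resembled Ier3 over the 8 libraries were Emp2 (Pearson r = 0.995), Psap (r = 0.994) and Rhbdf2 (r = 0.994). Emp2 had 12.8 and 18.5 CPM in QT7, 17.4 and 19.2 CPM in QT7L1, 4.93 and 5.07 CPM in QKO, and 9.95 and 14.9 CPM in WT. Most like Socs3 were Mapkapk3 (r = 0.985), Clip2 (r = 0.984) and Vsig10 (r = 0.984). For Lifr the closest were Rmnd5a (r = 0.979), Frmd8 (r = 0.977) and Ubn2 (r = 0.970), with Rmnd5a at 136 and 128 CPM in QT7, 128 and 138 CPM in QT7L1, 127 and 126 CPM in QKO, and 151 and 160 CPM in WT. Lrpprc (r = 0.968), Npc1 (r = 0.958) and Tpr (r = 0.954) were closest to Stat3. These values describe 8 libraries that fall into 4 groups, share a normalisation and are not independent points.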

How the data were processed

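Messenger RNA libraries were prepared by a stranded TruSeq protocol, 250 ng of total RNA each, per the labels' protocols. The submitters' processing notes name bcl2fastq 1.8.4, STAR 2.4.0f1, HTSeq and DESeq2 (listed as 2.1.8.3) and the build mm10 (GRCm38). For HTSeq, the strand setting and the handling of reads with several positions were not given in the sources used. The authors deposited integer counts per Ensembl gene for each library. Their comparison tables hold a mean normalised signal, a log2 fold change with its error on the log2 scale, a test score, a p-value and an adjusted p-value per the file headers. These deposited tables served for the gene symbols and for the calls credited to them, and the called values have the sign of the first named group over the second.

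From the counts, edgeR 4.0.16 in R 4.3.3 fitted 1 quasi-likelihood model (robust, TMM factors of 0.955 to 1.028, default low-count filter, a mean per group, 4 residual degrees of freedom) to 8 libraries. The 6 pairs of groups were tested 2-sided, with Benjamini-Hochberg adjustment over 16515 genes and a threshold of 0.05. SE is taken from the log2 fold change and F, as its size over root F. Log2 CPM used a prior count of 2, and exon lengths and gene coordinates came from GENCODE M21 on GRCm38. With 2 libraries per group, each p-value sets a difference against the spread between clones or cultures. That spread was estimated over all 4 groups, with information shared between genes. The WT libraries are biological replicates and are not labelled as clones.

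The 10 genes, the pathway and marker lists and the tests were chosen with earlier results of these data known. The 10 genes and the 4 TCF/LEF genes are named always. A gene first listed for the interleukin-6 family is not reported here and is left out of that list's counts and medians. From each pathway list up to 4 genes called in a comparison, those of smallest adjusted p, are named, and for Lifr, Socs3, Ier3 and Stat3 the 3 genes of highest correlation. Alternatives were RLE size factors, no filter on low counts, DESeq2 1.42.0, a replicate block, leaving out each library, and fitting only the 2 groups compared. For the pathway lists these were added after the data were seen.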

Additional observations from a re-analysis of the deposited data

How the results depend on the processing

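Over the 10 genes, 6 comparisons and 13 alternatives, 728 values kept their side of the threshold, 40 lost a call and 12 gained one. No called value changed sign, while some values near 0 that were not called did. Leaving out each library in turn, the number of the 10 genes called was 1 to 3 in QT7 against QKO, 2 to 6 in QT7L1 against QKO, 2 to 7 in QKO against WT, 0 to 1 in QT7 against WT, 0 to 1 in QT7L1 against WT and 0 to 0 in QT7 against QT7L1. The number of all genes called was 1432 to 4355 in QT7 against QKO, 1704 to 5971 in QT7L1 against QKO, 1272 to 5497 in QKO against WT, 52 to 2023 in QT7 against WT, 0 to 517 in QT7L1 against WT and 0 to 1564 in QT7 against QT7L1. Fitting only the 2 groups compared gave 0 of the 10 genes and 117 of all genes in QT7 against WT (1 and 763 as reported), 1 and 614 in QT7L1 against WT (0 and 123 as reported), and 20 of all genes in QT7 against QT7L1 (1 as reported). Without a filter on low counts, QT7 against WT gave 2203 genes, QT7L1 against WT 1248 genes and 2 of the 10, and QT7 against QT7L1 1030 genes. DESeq2 gave 1286, 568 and 236 genes in those 3 comparisons, and 1 of the 10 in QT7L1 against WT. The cause of these shifts was not tested.

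Replicate numbers did not pair the libraries: same-numbered deviations correlated at -0.21 (QT7 with QKO), -0.17 (QT7L1 with QKO), -0.03 (QKO with WT), 0.16 (QT7 with WT), 0.04 (QT7L1 with WT) and 0.16 (QT7 with QT7L1). With a replicate block, 3, 4, 6, 1, 0 and 0 of the 10 genes were called in QT7 against QKO, QT7L1 against QKO, QKO against WT, QT7 against WT, QT7L1 against WT and QT7 against QT7L1. The lost call was Pim1 in QT7L1 against QKO (adjusted p = 0.0552), which RLE size factors also lost, and QT7 against QT7L1 gave 2 genes in all. With 2 libraries per group, a p that misses the threshold does not show that groups are alike.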
